A study of Mus musculus with 30 samples.

Results

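The ascending colon, which follows the caecum, was compared with the descending colon, which leads to the rectum, in the control mice of a study of colonic O-glycans. Libraries were chosen by their labels, as all those labelled Control: 14 of the 30 in the series, 7 from each region. Each library is a whole piece of colon from a female mouse, sequenced as ribosome-depleted total RNA in single reads of 50 nt. Cage A held mice labelled 'C57BL/6 Background' aged 3.4 months and gave 2 controls per region. Cage B gave 3 and cage C gave 2 controls per region, all labelled 'Mixed BL/6-129SvJ', aged 2.6 months in cage B and 3.2 months in cage C. All mice shared a microbiota. The protocol calls the controls WT littermates and does not give their alleles at C1galt1 or C3GnT (B3gnt6), although both parents of the cross carried floxed C1galt1. It has mutants or WT littermates given daily tamoxifen injections (0.5 mg, about 20 mg/kg) over 5 days and analysed 5 or 10 days later, without assigning either time to a library. The 8 ascending and 8 descending mutants, labelled TM-DKOAsc, came from the same cages and were used to repeat the comparison. They carry floxed C1galt1, VillinCre-ERT2 (tamoxifen-inducible Cre under the Villin promoter of gut epithelium) and C3GnT-/-. The labels do not say whether an ascending and a descending library came from the same mouse.

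The colon changes along its length. The ascending part receives fluid that still holds bile acids, nutrients and fermentable fibre, and its epithelium handles short chain fatty acids and residual bile acids. The descending part dries and stores stool, taking up sodium through the aldosterone-regulated channel and exchanging potassium for protons. Position along the gut is laid down by transcription factors of the Hox and Cdx families, and each region has its own set of secreted proteins, hormones and immune cells.

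Expression is given in FPKM, fragments per kilobase of gene, scaled to the mapped reads of the library, as deposited, with the mean ± SD over the 7 libraries of each region, ascending first. Differences are ascending minus descending on the scale log2(FPKM + 1), which understates changes of weakly expressed genes. They come from limma with cage as a covariate, fitted over the 12515 genes whose mean reached 0.5 FPKM. A gene is called when its adjusted p (Benjamini-Hochberg, two-sided) is under 0.05, and "rose" or "fell" below is used of called genes only. Read depth, estimated from the spacing of low values, was 3.42 to 6.46 M reads (median 3.84) in ascending and 3.17 to 8.78 M (median 7.16) in descending controls. Depth therefore differed with region, and its part in the results was not tested. In pieces of whole tissue, fewer cells of a type and less RNA per cell cannot be told apart.

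Both tissues held markers of colon epithelium at high levels. Absorptive colonocyte markers summed to 10990 to 19250 FPKM in ascending and 4715 to 8626 in descending libraries, and goblet cell products to 3564 to 13190 and 4062 to 10070. Of 19 listed markers of pancreas, small intestine and liver, 8 had values, so the check for other tissue is partial. They summed to at most 50.9 and 315.6 FPKM, mostly Ttr and Cela1 in the descending colon. Of the targeted glycan genes, C1galt1 was at 35.3 ± 9.44 against 32.9 ± 3.47 FPKM. B3gnt6 was at 9.52 and 19.5 FPKM in B1 and B2 of the ascending controls and below 1 FPKM in the other 12 controls. Also, 2 libraries stood apart from the rest of their region. Descending control A2 (array quality weight 0.165) and ascending control B1 (0.298) had the lowest weights, and the other 12 lay between 0.524 and 2.62. For 12 of the 15 genes that were most ascending, A2 was the highest descending library, and for 13 of the 15 that were most descending it was the lowest. It held 26.3 FPKM of Isx where the other descending libraries held at most 4.36, and 0.38 FPKM of Hoxd13 where they held at least 82.4. Results are therefore also given without these 2 libraries, in a fit added after seeing the data. Both lay nearest to the other region for many of the largest differences, so leaving them out tends to widen those differences. Values and calls from that fit describe its effect and are no separate support.

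Of the 12515 genes, 4744 (37.9%) were called, 1598 of them higher in the ascending (12.8%) and 3146 higher in the descending colon (25.1%). Without descending control A2 and ascending control B1 the call covered 5348 of 12440 genes, 2028 and 3320 by direction. The median difference over all genes was -0.14, and median-of-ratios scaling moved it to -0.004. With that scaling 53.9% of called genes were higher in the ascending colon, against 33.7% as deposited and 46.2% after quantile normalization. The excess of descending calls thus changed with the scale: it was absent with median-of-ratios scaling and smaller after quantile normalization. Its cause was not tested, and small differences are read against that median. The 30 genes of largest difference, described next, were all called in the same direction with either other scaling. Among called genes, 571 were at least 1 log2 unit higher in the ascending and 473 in the descending colon, and 26 and 18 were at least 4 units higher. The counts of gene lists given below are to be read against these shares of all genes, 12.8% ascending and 25.1% descending. The filter of 0.5 FPKM used the mean over both regions. Members near 0 in 1 region, such as Nts, Sis, Hoxd12 and Defb45, passed it through the other region. This favours calls toward the region where such members are high, in every list that holds them. The 7 ascending values lay wholly above or below the 7 descending values for 1341 genes (10.7%).

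**Figure D1:**
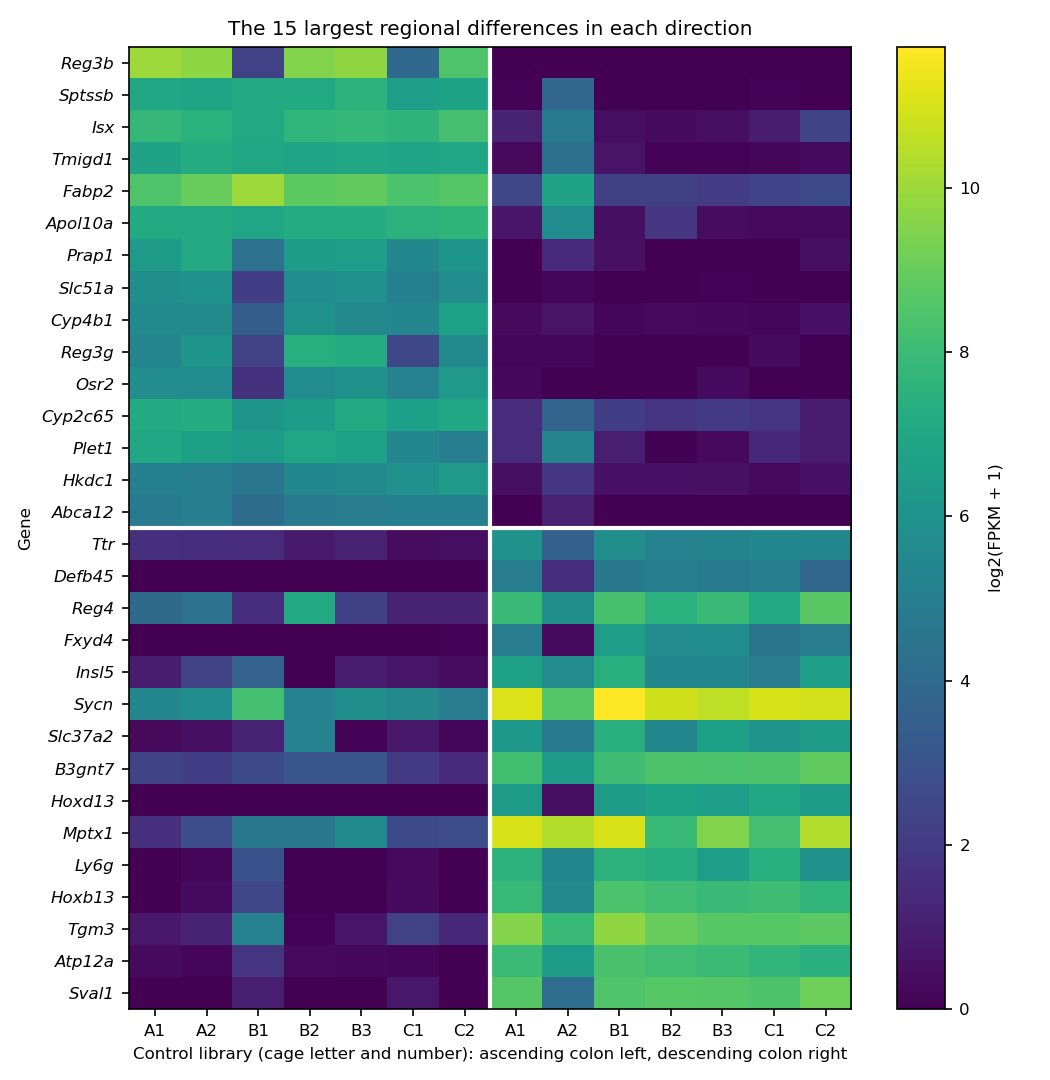
Heat map of log2(FPKM + 1) for the 15 genes with the largest differences in each direction (rows) in the 14 control libraries (columns, ascending left, descending right; letters are cages). The upper 15 genes are high on the left and the lower 15 on the right, with descending A2 and ascending B1 nearest to the other region for most of them.

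The largest ascending differences were in a lectin of antibacterial defence, a lipid enzyme subunit, an intestinal homeobox factor and proteins of fat and bile acid handling. Reg3b, a secreted bactericidal lectin, ranged from 3.99 to 1015 (median 714) FPKM in ascending libraries and was listed at 0 in all 7 descending ones. The low ascending libraries were B1 (3.99) and C1 (15.2). Sptssb, a small subunit of serine palmitoyltransferase, the first enzyme of sphingolipid synthesis, was at 91.6 to 186 (median 131) against 0 to 13.6 (median 0) FPKM. Its difference was 6.41 ± 0.47 (SE; limma adjusted p = 4.37e-07), and A2 held its highest descending value. Isx (ENSMUSG00000031621.9; GRCm38 chromosome 8, 74873173 to 74893506) encodes an intestine-specific homeobox factor that restrains vitamin A uptake. It was at 139 to 302 (median 207) in ascending and 0.25 to 26.3 (median 0.87) FPKM in descending libraries, a difference of 6.19 ± 0.50 (limma adjusted p = 1.02e-06). Fabp2 (ENSMUSG00000023057.5; GRCm38 chromosome 3, 122895072 to 122899506) encodes the intestinal fatty acid binding protein and was at 340.4 to 1006 (median 433) against 3.14 to 106 (median 4.14) FPKM, 5.91 ± 0.57 apart. The groups did not overlap for either gene. Tmigd1, a brush border membrane protein, was at 122 ± 14.1 against 2.78 ± 6.77 FPKM, and Apol10a, an apolipoprotein L, at 155 ± 29.7 against 7.95 ± 19.1 FPKM. A2 was the highest descending library for each of the 5 genes after Reg3b. Without A2 and B1 the differences were 6.97 for Sptssb, 6.78 for Isx, 6.34 for Fabp2, 6.65 for Tmigd1 and 6.68 for Apol10a. The other genes of the 15 were Prap1, Slc51a, Cyp4b1, Reg3g, Osr2, Cyp2c65, Plet1, Hkdc1 and Abca12, at 5.73 down to 4.69 log2 units.

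The largest descending differences were in secreted proteins, a proton pump and posterior Hox genes. Sval1, a secreted seminal-vesicle-antigen-like protein, ranged from 0 to 0.96 (median 0) FPKM in ascending to 17.2 to 563 (median 391) in descending libraries, a difference of -7.78 ± 0.54 (limma adjusted p = 3.38e-07). Atp12a (ENSMUSG00000022229.3; GRCm38 chromosome 14, 56365068 to 56388550) encodes the catalytic subunit of the colonic proton and potassium pump. It was at 0 to 2.39 (median 0.20) against 85.6 to 323 (median 251) FPKM, -7.3 ± 0.26 apart (limma adjusted p = 1.17e-09), so every descending library exceeded every ascending one. Tgm3, a transglutaminase that cross-links proteins, was at 0.070 to 34.8 (median 1.17) against 242 to 866 (median 431) FPKM. Ly6g, a GPI-anchored surface protein used as a neutrophil marker, was at 1.02 ± 2.52 against 126 ± 59.7 FPKM. Mptx1, a secreted pentraxin, reached 1149 ± 761 FPKM in the descending and 16.5 ± 16.4 in the ascending colon. Sycn, which encodes the granule protein syncollin, was the most abundant of the 15, at 384 to 3358 (median 1932) FPKM in descending and 29.9 to 299.8 (median 44) in ascending libraries. The remaining members were Hoxb13, Hoxd13, B3gnt7, Slc37a2, Insl5, Fxyd4, Reg4, Defb45 and Ttr, between -7.2 and -4.16. Each of the 30 genes had the same direction in all 3 cages, which the naming rule required.

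Ion transport genes differed in both directions. The sodium and proton exchanger Slc9a3 and guanylin were among the ascending genes, and the proton pump Atp12a and the chloride and bicarbonate exchanger Slc26a3 among the descending ones. Of the 20 tested genes of anion, proton and bicarbonate transport, 10 rose in the ascending and 6 in the descending colon (80% called, against 37.9% of all genes). Slc9a3, the apical sodium and proton exchanger NHE3 of neutral salt uptake, was at 86.4 to 380.0 (median 129.8) FPKM in ascending and 0.66 to 176 (median 4.86) in descending libraries. Its difference was 4.23 ± 0.79 (limma adjusted p = 9.90e-04). A2 alone among the descending libraries held 176 FPKM, within the ascending range, and the difference was 4.72 without A2 and B1. The call was lost without cage B. The companion exchanger Slc9a2 was at 122 ± 39.4 against 59 ± 10.2 FPKM, log2 difference 1.0. The basolateral anion exchanger Slc4a2 was at 71.7 ± 15 against 27 ± 12.3 FPKM, log2 difference 1.44. Guanylin (Guca2a), a secreted peptide that drives chloride and fluid secretion, was at 2085 to 4958 (median 2527) against 226 to 1319.7 (median 282) FPKM. Uroguanylin (Guca2b) was at 42.7 ± 14.7 against 9.02 ± 3.32 FPKM, log2 difference 2.11. Their receptor Gucy2c was at 141 ± 19.3 against 79.5 ± 12.7 FPKM, log2 difference 0.82. On the descending side, Slc26a3, which works beside Slc9a3 in neutral salt uptake, was at 86.8 ± 90.5 against 223 ± 44 FPKM, with ascending B1 (287 FPKM) inside the descending range. Its difference was -1.76 ± 0.34, and -2.08 without A2 and B1. Best2, an anion channel of goblet cells, was at 3.14 ± 2.35 against 30.1 ± 13.1 FPKM, log2 difference -2.94.

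Carbonic anhydrases, which supply protons and bicarbonate, were tested for 9 members, of which 5 rose in the ascending and 0 in the descending colon. Car8, a member without enzyme activity, had the largest difference at 34 ± 12.1 against 1.88 ± 1.1 FPKM, 3.55 log2 units. Car12, at 19.8 ± 3.37 against 2.23 ± 2.85 FPKM, log2 difference 2.97, and Car1, the abundant cytosolic form, at 2799 to 7199.8 (median 4519) against 156 to 2591 (median 679) FPKM, followed. The Car1 groups did not overlap, although descending B1 (2591 FPKM) came close to ascending B1 (2799 FPKM). Car13 was at 13.6 ± 3.46 against 8.55 ± 2.11 FPKM, log2 difference 0.61. Car9 was at 27.6 ± 3.03 against 22.4 ± 3.89 FPKM, log2 difference 0.30, a call lost in several alternatives, among them the replicate block. Car2 (202 ± 51.1 against 341 ± 127 FPKM) and the membrane-bound Car4 (349 ± 262 against 497 ± 197 FPKM) were not called (limma adjusted p = 0.0866 and 0.17), nor were Car3 and Car15. Without A2 and B1, Car2 (-0.91) and Car4 (-0.85) were called higher in the descending colon, so that 5 carbonic anhydrases were ascending and 2 descending.

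**Figure D2:**
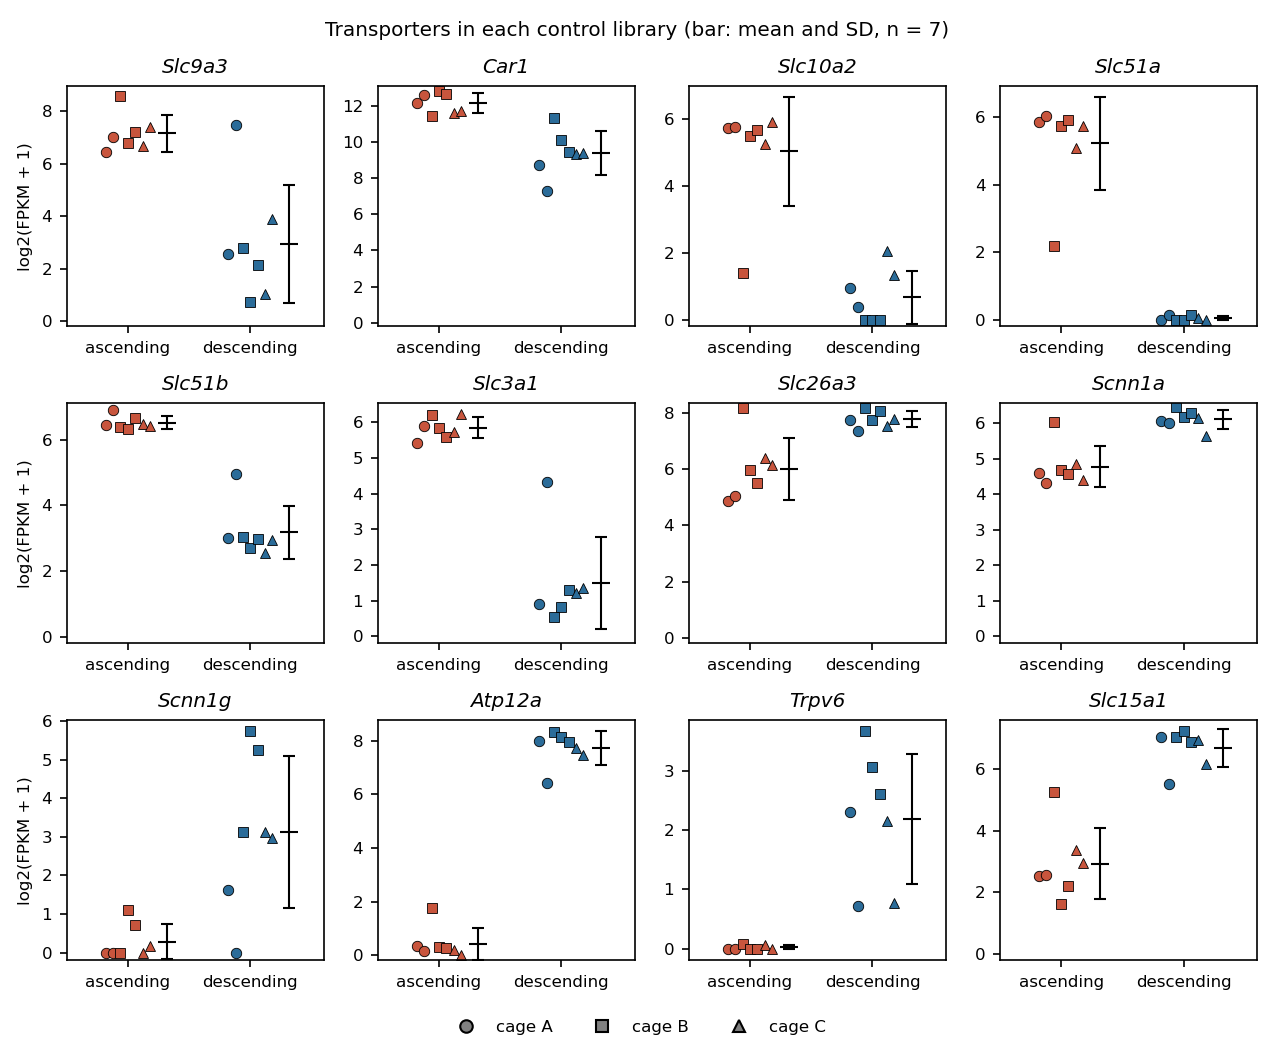
Values of 11 transporters and the carbonic anhydrase Car1 in each control library, as log2(FPKM + 1) on the vertical axis, with marker shape for cage and a bar for mean and SD of 7 libraries. Bile acid carriers and Slc9a3 are high in the ascending colon, and Atp12a, the sodium channel subunits Scnn1a and Scnn1g, Trpv6 and Slc15a1 in the descending colon.

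Genes of electrogenic sodium uptake had calls in both directions. Of 14 tested genes of the sodium channel list, 2 rose in the ascending and 3 in the descending colon, a share near the 37.9% of all genes. Scnn1a, the alpha subunit of the channel, was at 18.8 to 64.9 (median 23.4) against 48.6 to 86.7 (median 70.3) FPKM, -1.33 ± 0.20 apart (limma adjusted p = 2.02e-04). Ascending B1, at 64.9 FPKM, was the sole ascending library within the descending range. Scnn1g, the gamma subunit, was at 0 to 1.17 (median 0) against 0 to 52.1 (median 7.71) FPKM, and A2 held 0 FPKM. Its difference was -2.84 ± 0.51, and -1.89 without cage B. Scnn1b, the beta subunit, was at 6.31 ± 2.42 against 12.4 ± 9.88 FPKM and was not called (limma adjusted p = 0.405). Fxyd4, a regulator of the sodium pump, was at 0 to 0.080 (median 0) against 0.25 to 94.9 (median 30.2) FPKM. The sodium pump subunit Atp1b1 (560.2 ± 78.4 against 704 ± 123 FPKM) was not called. Hsd11b2, which protects the mineralocorticoid receptor from glucocorticoids, was at 107 ± 43.7 against 187 ± 73.9 FPKM (limma adjusted p = 0.116). Without A2 and B1, 6 members were called higher in the descending colon, among them Atp1b1 (-0.44) and Hsd11b2 (-1.0). Of all genes in that fit, 3320 of 12440 were. Nedd4l, the ligase that removes the channel, was higher in the ascending colon (20.4 ± 2.32 against 14.3 ± 2.8 FPKM, log2 difference 0.50), a call lost without cage B.

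Potassium and water channels were few and differed in both directions. Kcne3, a regulatory subunit of basolateral potassium channels, was at 35.9 ± 11.7 against 84.8 ± 18.4 FPKM, log2 difference -1.25. The calcium-activated channel Kcnn4 was at 9.24 ± 1.67 against 17 ± 3.72 FPKM, log2 difference -0.80. The leak channel Kcnk6 was at 17.5 ± 5.17 against 8.57 ± 2.88 FPKM, log2 difference 0.96. Kcnq1 and Kcnma1 were not called. Kcnma1 was called in several alternatives, among them either other scaling and the fit without A2 and B1 (0.49). Aqp8, the main apical water channel listed here, was at 254 to 560.4 (median 293) FPKM in descending libraries and 14 to 1303 (median 48.4) in ascending ones. Ascending B1 held 1303 FPKM, above every descending library. The call on Aqp8 (-2.31; limma adjusted p = 0.025) was lost when cage A, cage C, descending A1 or ascending A1, B3 or C2 was left out. Aqp1, of vessels and epithelium, was at 33.1 ± 17.7 against 12.2 ± 2.47 FPKM, log2 difference 1.17. Aqp11 was at 4.55 ± 1.19 against 2.65 ± 0.74 FPKM, log2 difference 0.60, and both calls were lost without cage A, that of Aqp11 also without cage C. Aqp4 was at 19.9 ± 28.5 against 16.7 ± 18.6 FPKM and was not called.

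Carriers of metals and minerals had calls in both directions, 5 of 22 higher in the ascending and 6 in the descending colon (50% called, against 37.9% of all genes). The zinc importer Slc39a4 was at 90.1 ± 13.6 against 31.3 ± 7.8 FPKM, log2 difference 1.52. The zinc exporter Slc30a1 was at 28.1 ± 7.48 against 15.6 ± 4.25 FPKM, log2 difference 0.80. The manganese exporter Slc30a10 was at 23.6 ± 12 against 5.82 ± 2.42 FPKM, log2 difference 1.76. The calcium pump Atp2b1 was at 43.8 ± 4.7 against 28 ± 5.56 FPKM, log2 difference 0.64. All 4 rose in the ascending colon, and the next 3 genes in the descending colon. Trpv6, the apical calcium channel, was at 0 to 0.060 (median 0) against 0.65 to 11.7 (median 3.92) FPKM, and no ascending library reached the lowest descending one. The magnesium channel Trpm6 was at 23 ± 9.99 against 59.1 ± 19.4 FPKM, log2 difference -1.35. The phosphate carrier Slc20a1 was at 30.6 ± 14.1 against 100.4 ± 36.6 FPKM, log2 difference -1.71.

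Nutrient carriers differed in both directions, 12 of 31 higher in the ascending and 13 in the descending colon. Slc3a1, a subunit of the cystine and basic amino acid carrier, was at 42.3 to 74.8 (median 56.7) against 0.45 to 19.2 (median 1.33) FPKM, 4.36 ± 0.44 apart. Slc13a2, a citrate and succinate carrier, was at 189 ± 73 against 45 ± 41 FPKM, log2 difference 2.29. The nucleoside carrier Slc28a2 was at 1.87 ± 1.1 against 0.179 ± 0.307 FPKM, log2 difference 1.21. Slc15a1, the oligopeptide carrier PEPT1, was the reverse at 2.11 to 36.9 (median 4.97) against 44.9 to 149 (median 120.3) FPKM, -3.75 ± 0.45 apart (limma adjusted p = 2.75e-05). Slc37a2, a sugar phosphate carrier, was at 5.4 ± 13.1 against 79 ± 42.9 FPKM, log2 difference -4.98. Slc28a3, another nucleoside carrier, was at 0.274 ± 0.179 against 5.12 ± 2.09 FPKM, log2 difference -2.19. Slc1a1, an acidic amino acid carrier, was at 3.13 ± 0.389 against 14.9 ± 3.17 FPKM, log2 difference -1.92. These 4 carriers were thus descending. Slc6a8, the creatine carrier, was at 54.7 ± 32.8 against 148 ± 34.9 FPKM, log2 difference -1.53. Slc5a8, the sodium-coupled carrier of short chain fatty acids, was at 58.7 ± 12.2 against 122 ± 40.6 FPKM, log2 difference -0.99. Slc16a1, the proton-coupled one, was at 63.4 ± 22.5 against 115 ± 47.4 FPKM, log2 difference -0.80, a call lost with median-of-ratios scaling, without cage B or C, and without any one of descending A1, B1, C1 and C2 and ascending B3, C1 and C2. The fatty acid receptor Ffar2 was at 7.67 ± 2.64 against 2.47 ± 3.71 FPKM, log2 difference 1.69, and its call was lost without cage B.

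Bile acid genes were mostly ascending: 6 of the 10 tested rose there and 1 in the descending colon, the same counts in each alternative run. Slc51a (ENSMUSG00000035699.8; GRCm38 chromosome 16, 32474504 to 32487879) and Slc51b encode both parts of the basolateral bile acid exporter. Slc51a was at 3.55 to 64.6 (median 52.5) against 0 to 0.10 (median 0) FPKM, with ascending B1 (3.55) the lowest of its region. Slc51b was at 79 to 118 (median 87.4) against 4.91 to 29.9 (median 6.92) FPKM, 3.34 ± 0.25 apart (limma adjusted p = 4.62e-07). Slc10a2 (ENSMUSG00000023073.2; GRCm38 chromosome 8, 5083219 to 5105351), the apical uptake carrier, was at 1.64 to 59.9 (median 50.6) against 0 to 3.13 (median 0.30) FPKM. Its difference was 4.37 ± 0.53, and 4.83 without A2 and B1. Nr1h4, the bile acid receptor FXR, was at 112 ± 36.7 against 30.02 ± 8.85 FPKM, log2 difference 1.81. Abcc3, a basolateral exporter, was at 129 ± 15.4 against 56.8 ± 9.2 FPKM, log2 difference 1.17. The organic anion carrier Slco2b1 was at 3.99 ± 1.68 against 1.37 ± 0.481 FPKM, log2 difference 0.99. Abcc4, an exporter of organic anions and cyclic nucleotides, was the descending member (2.36 ± 0.437 against 8.22 ± 1.43 FPKM, log2 difference -1.45). Fabp6, the ileal bile acid binding protein, was at 14 ± 11.6 against 8.04 ± 6.16 FPKM and was not called. Pumps for drugs and lipids were called in both directions, 3 of 9 higher in the ascending and 2 in the descending colon (55.6% called, against 37.9% of all genes). With median-of-ratios scaling 1 was descending. The ascending ones were Abcb1a (342 ± 36.6 against 166 ± 48.2 FPKM, log2 difference 1.08), Abcg2 (22.7 ± 10.1 against 9.22 ± 3.61 FPKM, log2 difference 1.2) and Abcc5 (7.71 ± 2.06 against 1.86 ± 1.37 FPKM, log2 difference 1.67).

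Hox genes, which set position along the body axis, were called in both directions. In the Hoxb and Hoxd clusters the direction changed along the cluster, and in the Hoxa cluster all 10 tested members were below 0, with Hoxa5 and Hoxa6 descending where Hoxb5 and Hoxb6 were ascending. Of 28 tested, 11 rose in the ascending and 11 in the descending colon. In the Hoxb cluster the ascending members were Hoxb3 (18.4 ± 9.44 against 2.12 ± 1.2 FPKM), Hoxb4 (25.5 ± 13.2 against 2.74 ± 1.81 FPKM), Hoxb5 (57 ± 33.1 against 5.95 ± 3.62 FPKM), Hoxb6 (89.9 ± 44.6 against 7.62 ± 4.12 FPKM), Hoxb7 (11.5 ± 4.82 against 0.91 ± 0.312 FPKM) and Hoxb8 (16.9 ± 7.08 against 0.281 ± 0.192 FPKM). Their differences lay between 2.52 and 3.62 log2 units. Hoxb2 was 0.40 higher, a call lost under several alternatives, and Hoxb9 was not called (0.46, limma adjusted p = 0.093). Hoxb9 was called in several alternatives, among them median-of-ratios scaling and the fit without A2 and B1 (0.73). At the other end of the same cluster, Hoxb13 (ENSMUSG00000049604.3; GRCm38 chromosome 11, 96194316 to 96197447) was at 0 to 4.55 (median 0) in ascending and 44.5 to 341 (median 235) FPKM in descending libraries, -7.2 ± 0.41 apart (limma adjusted p = 9.43e-08). A2 was its lowest descending library, at 44.5 FPKM.

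The Hoxd cluster switched direction within itself. Hoxd3 (2.21 ± 1.3 against 0.116 ± 0.098 FPKM, log2 difference 1.41), Hoxd4 (10.8 ± 4.7 against 0.849 ± 0.845 FPKM, log2 difference 2.58) and Hoxd8 (2.78 ± 1.22 against 0.691 ± 0.272 FPKM, log2 difference 1.1) rose in the ascending colon. Hoxd9 (0.504 ± 0.184 against 5.04 ± 3.07 FPKM, log2 difference -1.78), Hoxd10 (0.391 ± 0.188 against 23.6 ± 14 FPKM, log2 difference -3.68) and Hoxd11 (0.13 ± 0.17 against 11.4 ± 5.87 FPKM, log2 difference -3.09) rose in the descending colon, although the call on Hoxd9 was lost without cage B. Hoxd12 and Hoxd13 were listed at 0 in all ascending libraries and were at 0 to 10.4 (median 8.12) and 0.38 to 123 (median 89) FPKM in descending ones. In the Hoxa cluster Hoxa13 rose in the descending colon (5.67 ± 10.2 against 33.4 ± 8.14 FPKM, log2 difference -3.59). Hoxa5 (-1.76), Hoxa6 (-2.09), Hoxa9 (-1.72) and Hoxa10 (-2.12) were called too, but not without cage A or cage B. The call on Hoxa9 was also lost with either other scaling, without cage C, and without any one of descending A1, A2, B2, B3, C1 and C2 and ascending A1, A2, B2, B3 and C2. Hoxa2 (-0.71), Hoxa3 (-0.76), Hoxa4 (-0.92), Hoxa7 (-0.67) and Hoxa11 (-0.24) were not called. In some alternatives Hoxa2, Hoxa3, Hoxa4 or Hoxa7 was called, among them Hoxa2 without A2 and B1 (-0.62). In the Hoxc cluster Hoxc6 was the member tested and rose in the ascending colon (1.05 ± 0.616 against 0.0557 ± 0.147 FPKM, log2 difference 0.92). Its call was lost without cage B.

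**Figure D3:**
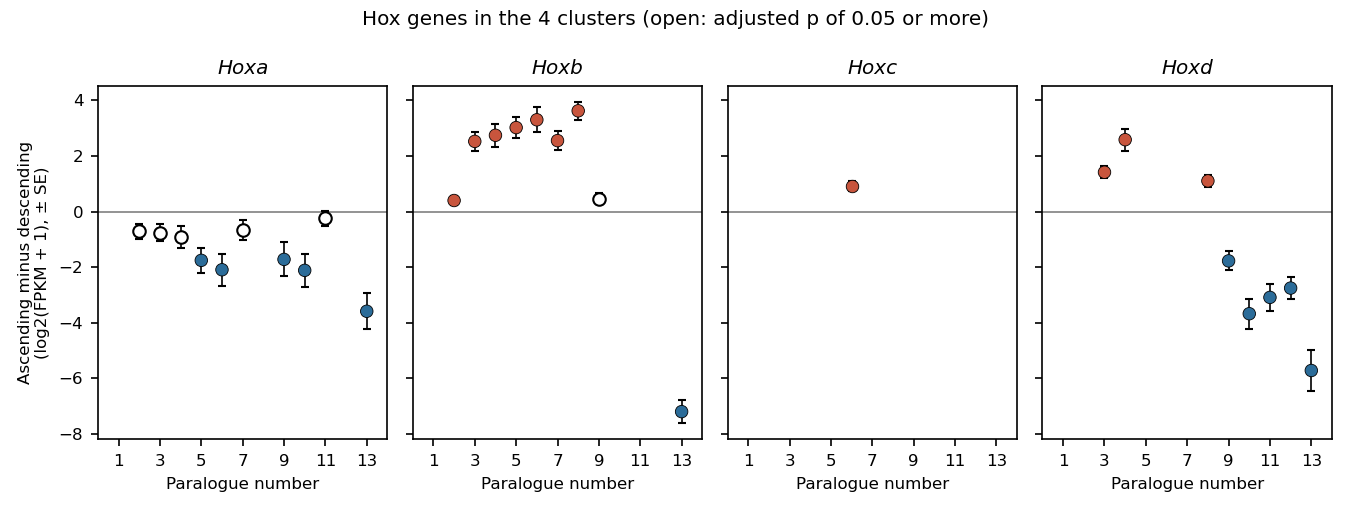
Differences between ascending and descending controls on the log2(FPKM + 1) scale with SE (vertical axis) for the 28 tested Hox genes by paralogue number, 1 panel per cluster. Filled points are called. The Hoxb and Hoxd clusters run from positive values at low numbers to negative values at Hoxb13, Hoxd12 and Hoxd13, and the 10 Hoxa members are below 0.

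Among factors of the gut epithelium, Isx and Cdx2 had the largest ascending differences. Cdx2, the factor that sets intestinal identity, was at 119 to 178 (median 138) against 2.79 to 73.3 (median 11.1) FPKM, 3.52 ± 0.46 apart (limma adjusted p = 5.82e-05), whereas its relative Cdx1 was at 199.6 ± 39.1 against 209 ± 48.4 FPKM and was not called. Hnf4a, a general factor of gut epithelium, was at 227 ± 36.5 against 223 ± 29.6 FPKM and was not called (limma adjusted p = 0.888). Spdef, a goblet cell factor, was at 65.6 ± 25.8 against 21.1 ± 27.1 FPKM, log2 difference 2.03, a call lost without cage B. Foxa2 (4.65 ± 1.77 against 23.5 ± 6.64 FPKM, log2 difference -2.12), the keratinocyte factor Zfp750 (2.97 ± 1.05 against 8.04 ± 2.74 FPKM, log2 difference -1.16) and the crypt factor Sox9 (22.1 ± 5.28 against 40.4 ± 3.28 FPKM, log2 difference -0.87) rose in the descending colon. Over the list, 8 of 32 rose in the ascending and 7 in the descending colon (46.9% called, against 37.9% of all genes). In the mesenchymal list Osr2 was at 2.32 to 76.8 (median 50.7) FPKM in the ascending colon against 0 to 0.25 (median 0.050), with ascending B1 at 2.32, and Tbx3 was at 3.56 to 18 (median 17.3) against 0.16 to 0.75 (median 0.50). Of 27 nuclear receptors tested, 6 rose in the ascending and 4 in the descending colon (37% called), a share near that of all genes. Ppara, a sensor of fatty acids, was at 21.9 ± 11.3 against 3.71 ± 0.913 FPKM, log2 difference 2.17. Pparg was at 52.8 ± 5.88 against 15.4 ± 4.03 FPKM, log2 difference 1.74. Their partner Rxra was at 40.2 ± 4.51 against 19.9 ± 2.32 FPKM, log2 difference 0.98. Nr1h3, the oxysterol receptor LXR alpha, was called in the opposite direction at 4.36 ± 1.25 against 6.26 ± 1.3 FPKM, log2 difference -0.45, a call lost with median-of-ratios scaling, with quantile normalization and without cage B. Esrrg, an orphan receptor of oxidative metabolism, was at 0.496 ± 0.44 against 4.81 ± 1.27 FPKM, log2 difference -1.97. The xenobiotic receptor Nr1i3 was at 0.193 ± 0.245 against 1.03 ± 0.448 FPKM, log2 difference -0.76.

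Because Cdx2, the Hox genes and Fabp2 all differed, promoter windows of the 30 genes of largest difference were searched on both strands for TTTATTG, a motif of Cdx and posterior Hox factors, and CAAAGTNCA, a motif of Hnf4. Windows of 300 bases, 250 before and 50 after a gene's start, came from RefSeq on GRCm38.p6. They matched 26 of the 30 genes. Across all 32851 windows 4.6% held the first motif and 1.41% the second. Among the 26 genes TTTATTG was found for Fabp2 and Ly6g and CAAAGTNCA for Fabp2 and Cyp2c65. Outside the 30 genes, the bile acid genes Slc10a2, Slc51b and Nr1h4 were picked by name and looked up too. Slc10a2 held TTTATTG, and no match was found for Slc51b or Nr1h4. The windows of the 3 ascending genes are printed 5′ to 3′ on the gene's strand, since they show where the letters lie in 3 promoters of genes that rose together. Capitals mark the motifs. They are Fabp2 at chr3:122894822-122895121 (plus strand), Cyp2c65 at chr19:39060756-39061055 (plus strand) and Slc10a2 at chr8:5105238-5105537 (minus strand).
Fabp2: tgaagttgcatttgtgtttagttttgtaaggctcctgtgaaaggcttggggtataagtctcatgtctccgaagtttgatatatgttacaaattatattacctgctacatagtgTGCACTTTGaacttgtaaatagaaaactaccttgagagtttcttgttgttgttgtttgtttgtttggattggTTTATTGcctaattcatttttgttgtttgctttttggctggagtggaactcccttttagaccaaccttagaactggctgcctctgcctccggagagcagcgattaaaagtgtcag
Cyp2c65: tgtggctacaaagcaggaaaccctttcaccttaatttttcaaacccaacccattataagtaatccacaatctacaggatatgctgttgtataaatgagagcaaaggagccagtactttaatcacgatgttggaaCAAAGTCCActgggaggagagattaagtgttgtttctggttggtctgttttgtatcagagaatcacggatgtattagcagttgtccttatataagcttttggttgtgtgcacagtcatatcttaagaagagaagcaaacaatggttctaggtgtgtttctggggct
Slc10a2: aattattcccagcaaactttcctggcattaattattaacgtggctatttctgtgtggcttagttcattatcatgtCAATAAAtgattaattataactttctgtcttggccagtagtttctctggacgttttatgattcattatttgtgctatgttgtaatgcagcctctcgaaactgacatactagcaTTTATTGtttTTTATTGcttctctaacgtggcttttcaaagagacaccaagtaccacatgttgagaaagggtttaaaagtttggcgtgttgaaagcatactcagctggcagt
A match of letters describes the window and shows no binding. The 2 motifs are short, and the counts of genes holding them are too few to set against the shares of all windows.

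Secreted proteins of goblet and other epithelial cells were regional in part. Muc2, the gel-forming mucin of the mucus layers, was at 1923 to 8018 (median 5345) against 456 to 2136 (median 548) FPKM, 2.74 ± 0.36 apart (limma adjusted p = 6.52e-05), and 3.17 without A2 and B1. The goblet products Zg16 (685 ± 429.7 against 761 ± 410.5 FPKM), Tff3 (686 ± 409 against 1331 ± 619.6 FPKM) and Fcgbp (359 ± 191 against 479 ± 108 FPKM) were not called. Tff3 was called higher in the descending colon without A2 and B1 (-1.24). Sycn and Sval1 were, as given above, among the most descending genes. Retnlb, an antibacterial resistin-like protein, was at 28.2 ± 27.5 against 7.48 ± 18.7 FPKM, log2 difference 2.94, with a call lost without cage B or C. Over the goblet list 6 of 19 rose in the ascending and 3 in the descending colon. Among defence proteins, Reg3g was at 3.75 to 161 (median 47.6) against 0 to 0.26 (median 0) FPKM and Reg3a, listed at 0 in the descending colon, at 0 to 5.28 (median 2.89) in the ascending. Reg3 genes are close paralogues, and how reads that map to several of them were counted is not stated here. In the opposite direction, Reg4, a lectin of secretory cells, was at 1.15 to 139 (median 3.7) against 53.6 to 417 (median 245) FPKM, with ascending B2 at 139. Wfdc2, a protease inhibitor, was at 21 ± 10.8 against 167 ± 63 FPKM, log2 difference -2.9. The oxidase Nox1 was at 1.56 ± 1.18 against 11.5 ± 4.75 FPKM, log2 difference -2.31. The acute phase protein Saa1 was at 139 ± 123 against 415 ± 179 FPKM, log2 difference -1.76. Defb45, a beta-defensin, was listed at 0 in every ascending library and was at 1.87 to 30.8 (median 26.4) FPKM in descending ones. The defence list had 4 ascending and 8 descending calls among 23 genes.

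Gut hormones, made by scattered enteroendocrine cells, rose mostly in the ascending colon, 11 of 21 against 4 in the descending, where all genes gave 12.8% and 25.1%. Neurotensin (Nts) was at 3.43 to 41.6 (median 24.2) against 0 to 0.27 (median 0) FPKM, and secretin (Sct) at 11.8 to 43.4 (median 28.1) against 0 to 3.38 (median 2.18). Nts passed the filter of 0.5 FPKM through its ascending values, which favours an ascending call. The granule proteins Chga (69.3 ± 33.5 against 17 ± 4.31 FPKM, log2 difference 1.78) and Chgb (84.9 ± 41 against 26.6 ± 7.76 FPKM, log2 difference 1.49) and the processing enzyme Pcsk1 (5.62 ± 2.66 against 0.874 ± 0.307 FPKM, log2 difference 1.71) rose with them. Insl5, an orexigenic peptide of distal L cells, was the descending hormone at 0 to 11.9 (median 0.84) against 29.2 to 161 (median 48.8) FPKM. Pyy, which slows transit, was at 68.7 ± 32.6 against 165 ± 61.5 FPKM, log2 difference -1.33, a call lost without cage B. Tac1, the precursor of substance P, was at 1.49 ± 0.557 against 4.34 ± 1.46 FPKM, log2 difference -1.08. Gcg, the precursor of GLP-1, was at 20.2 ± 12 against 16.4 ± 7.1 FPKM and was not called (limma adjusted p = 0.683). Among growth factors, Bmp3 (38.8 ± 17 against 13.4 ± 1.99 FPKM, log2 difference 1.32), Bmp7 (1.76 ± 0.623 against 0.403 ± 0.409 FPKM, log2 difference 0.99), Shh (1.7 ± 0.682 against 0.197 ± 0.40 FPKM, log2 difference 1.19) and Wnt5a (2.1 ± 0.717 against 0.574 ± 0.494 FPKM, log2 difference 1.0) rose in the ascending and Bmp2 (11.3 ± 6.51 against 47.7 ± 11.4 FPKM, log2 difference -2.13) in the descending colon. Tgfa, a ligand of the EGF receptor, was at 10.1 ± 1.09 against 6.2 ± 1.02 FPKM, log2 difference 0.63. Of cytokines, Ccl5, a chemokine of cytotoxic lymphocytes, was at 19.3 ± 9.06 against 1.3 ± 0.887 FPKM, log2 difference 3.08. The epithelial cytokines Il18 (12.9 ± 4.18 against 97.7 ± 34.2 FPKM, log2 difference -2.76), Il33 (1.25 ± 0.339 against 4.08 ± 1.82 FPKM, log2 difference -1.1) and Il1rn (4.84 ± 2.5 against 18 ± 4.05 FPKM, log2 difference -1.79) and the chemokine Ccl28 (18.3 ± 4.12 against 41 ± 7.41 FPKM, log2 difference -1.14) rose in the descending colon.

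Genes of fat absorption and oxidation had mostly ascending calls, and those of fatty acid synthesis calls in both directions. Of 22 genes of lipid absorption, 9 rose in the ascending and 1 in the descending colon, with a median difference of 0.66 against -0.14 for all genes. Apob, the scaffold of chylomicrons, was at 46.7 ± 13.3 against 11.6 ± 5.36 FPKM, log2 difference 1.97. Mogat2, an enzyme of triglyceride synthesis, was at 5.07 ± 1.81 against 0.653 ± 0.893 FPKM, log2 difference 1.94. Dgat2, which completes triglycerides, was at 29 ± 6.41 against 13.5 ± 2.64 FPKM, log2 difference 1.04. All 3 rose in the ascending colon. Plin2, a lipid droplet protein, was at 22 ± 2.1 against 49.1 ± 9.06 FPKM, log2 difference -1.11. Fatty acid oxidation and ketogenesis had 14 ascending and 4 descending calls among 29 genes. Pdk4, which turns pyruvate away from oxidation, was at 13.8 ± 5.1 against 1.11 ± 1.01 FPKM, log2 difference 2.85. The peroxisomal thiolase Acaa1b was at 12.7 ± 5.78 against 0.167 ± 0.374 FPKM, log2 difference 3.42. Acsm3 (13.4 ± 2.82 against 55.1 ± 15.9 FPKM, log2 difference -1.92) and Acss2 (9.62 ± 0.975 against 27.4 ± 6.03 FPKM, log2 difference -1.39), which activate medium chain fatty acids and acetate, rose in the descending colon. Fatty acid synthesis and desaturation had 5 ascending and 8 descending calls among 19 genes, 13 of them below 0. Me1 (8.9 ± 3.37 against 0.783 ± 0.809 FPKM, log2 difference 2.49), Elovl6 (17.4 ± 3.08 against 7.71 ± 2.74 FPKM, log2 difference 1.12) and Scd1 (20.6 ± 6.21 against 9.67 ± 3.38 FPKM, log2 difference 1.02) were ascending. Fads2 (26.8 ± 6.32 against 191 ± 44.6 FPKM, log2 difference -2.78), Scd2 (58.4 ± 8.63 against 224 ± 67.4 FPKM, log2 difference -1.85) and Acly (50.5 ± 8.46 against 161 ± 37.3 FPKM, log2 difference -1.63), the cytosolic source of acetyl-CoA, were descending.

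In cholesterol synthesis, 8 of 25 genes were called higher in the descending and 1 in the ascending colon (36% called, near the 37.9% of all genes), and 24 were below 0. The descending calls numbered 0 with median-of-ratios scaling, 6 with quantile normalization and 1 without cage C. Hmgcs1, which makes the precursor HMG-CoA, differed by -0.69 log2 units and by -0.52 with median-of-ratios scaling. Sqle, the squalene epoxidase, differed by -0.65 and -0.49. The calls on both were lost with that scaling and without cage C.

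Drug-metabolizing enzymes differed in both directions within families, and Cyp4b1 and Cyp2c65 were among the 15 most ascending genes. Cyp4b1 was at 9.82 to 104 (median 45.6) against 0.10 to 0.54 (median 0.21) FPKM. Cyp2c65, which oxidizes arachidonic acid, was at 71.4 to 152 (median 129) against 0.89 to 12.7 (median 2.5) FPKM. Neither gene had overlapping groups, and Cyp4f14 was at 131 ± 48.2 against 18.8 ± 24.2 FPKM, log2 difference 3.2. Cyp3a44 was listed at 0 in the descending colon and was at 0.70 to 34.5 (median 13.4) FPKM in the ascending. Cyp2c68 (3.62 ± 1.01 against 44 ± 19.3 FPKM, log2 difference -3.09), Cyp2f2 (0.336 ± 0.156 against 14.9 ± 6.5 FPKM, log2 difference -3.34) and Cyp2d12 (0.891 ± 0.50 against 24.9 ± 7.22 FPKM, log2 difference -3.75) were descending. The P450 list had 11 ascending and 7 descending calls among 27. The glucuronosyltransferases Ugt1a1 (202 ± 83.2 against 12.9 ± 5.08 FPKM, log2 difference 3.79) and Ugt2b5 (19.3 ± 8.9 against 0.080 ± 0.172 FPKM, log2 difference 4.11) and the esterases Ces1g (89.9 ± 37.6 against 2.73 ± 1.33 FPKM, log2 difference 4.55), Ces1f (38.3 ± 15.8 against 4.62 ± 2.61 FPKM, log2 difference 2.79) and Ces2e (157 ± 24.2 against 27.6 ± 8.27 FPKM, log2 difference 2.5) were ascending, and Ces2g (3.08 ± 1.03 against 12.4 ± 4.01 FPKM, log2 difference -1.67) descending. Members of these families are similar in sequence, so their single values are less certain. Vitamin A enzymes split too. Aldh1a1, which makes retinoic acid, was at 69 to 157 (median 106) against 3.99 to 7.65 (median 5.38) FPKM, 3.9 ± 0.16 apart (limma adjusted p = 4.35e-09). Adh1, an alcohol and retinol dehydrogenase, was at 45.2 ± 15.4 against 595 ± 233 FPKM, log2 difference -3.6. Rdh16 was at 6.21 ± 2.97 against 22.6 ± 5.46 FPKM, log2 difference -1.77. Esterases, aldehyde and retinol enzymes together had 17 ascending and 9 descending calls among 33.

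In central metabolism, sulfide-oxidizing enzymes rose in the ascending colon, 4 of 5. They were Mpst (109 ± 28.7 against 26.7 ± 6.13 FPKM, log2 difference 1.98), Ethe1 (414 ± 104 against 145 ± 47.7 FPKM, log2 difference 1.54), Suox (10.4 ± 4.57 against 3.35 ± 1.19 FPKM, log2 difference 1.33) and Sqor (116 ± 13.4 against 86.3 ± 21.3 FPKM, log2 difference 0.46), the entry enzyme, whose call was lost without cage B or C. None of the 37 respiratory chain genes was called by limma in either direction, against 37.9% of all genes. With median-of-ratios scaling 3 were called, all ascending, and without A2 and B1 2 were, both descending. Glycolytic genes were called in both directions. Ldhb (2.93 ± 0.72 against 1.08 ± 0.518 FPKM, log2 difference 0.94) and Gpi1 (70.04 ± 10.3 against 47.3 ± 6.27 FPKM, log2 difference 0.55) were ascending, Eno3 (19.2 ± 25.4 against 184 ± 96.2 FPKM, log2 difference -3.64) and Pgk1 (2.45 ± 0.902 against 4.44 ± 0.665 FPKM, log2 difference -0.69) descending. Among amino acid enzymes, Arg2, the mitochondrial arginase, was at 4.48 to 35.4 (median 28) against 0.28 to 2.53 (median 1.06) FPKM and the alanine aminotransferase Gpt at 27.2 ± 9.01 against 6.75 ± 1.4 FPKM, log2 difference 1.82. The monoamine oxidases were called in opposite directions. Maoa was at 252 ± 38.3 against 129 ± 33.7 FPKM, log2 difference 0.99. Maob was at 3.59 ± 0.641 against 9.51 ± 2.79 FPKM, log2 difference -1.14. Ddc, which makes serotonin and dopamine, was at 9.24 ± 1.84 against 23.9 ± 6.79 FPKM, log2 difference -1.25. Cdo1, which oxidizes cysteine, was at 7.89 ± 2.26 against 18.8 ± 4.75 FPKM, log2 difference -1.17.

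Glycan enzymes, which build the sugar chains of mucins, had more ascending calls in core synthesis (5 against 1 of 16) and more descending calls in extension (14 against 7 of 30). The core list was 37.5% called, about the 37.9% of all genes, and the extension list 70%. Gcnt3, which makes branched core 2 and core 4 O-glycans, was at 187 to 307 (median 232) against 20.4 to 37.6 (median 25.9) FPKM, 3.1 ± 0.14 apart (limma adjusted p = 1.33e-08). Gcnt4 (5.43 ± 2.88 against 0.646 ± 0.272 FPKM, log2 difference 1.83) and the initiating enzymes Galnt12 (72.3 ± 7.31 against 30.3 ± 15.5 FPKM, log2 difference 1.33) and Galnt10 (39.7 ± 9.28 against 23.7 ± 4.29 FPKM, log2 difference 0.70) were also ascending, and C1galt1 was not called (limma adjusted p = 0.766). Among extension enzymes, B4galnt2, which makes the Sda antigen, was at 522 ± 138 against 95 ± 49.6 FPKM, log2 difference 2.61. B4galnt1 was at 87.4 ± 17.9 against 8.61 ± 19.6 FPKM, log2 difference 4.67. A4gnt was at 15.5 ± 9.82 against 3.06 ± 0.651 FPKM, log2 difference 1.77. B3gnt7, which extends N-acetyllactosamine chains, was at 1.65 to 7.81 (median 4.35) against 85.4 to 465 (median 336) FPKM, and its groups did not overlap. B3gnt5, which starts lactoseries glycolipids, was at 1.25 ± 0.723 against 33.7 ± 11.8 FPKM, log2 difference -3.9. The sialyltransferase St3gal6 was at 5.35 ± 3.21 against 44.8 ± 10.04 FPKM, log2 difference -2.97. Nxpe4 was at 2.1 ± 4.01 against 24.9 ± 11 FPKM, log2 difference -3.53.

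On the epithelial surface, 13 of 22 brush border genes rose in the ascending and 1 in the descending colon. Alpi, the intestinal alkaline phosphatase, was at 12.3 to 35.5 (median 21.7) against 0 to 2.3 (median 0.18) FPKM, and the disaccharidase Sis at 0.030 to 14.6 (median 6.2) against 0 to 0.060 (median 0.010). The microvillar cadherins Cdhr2 (383 ± 73.6 against 192 ± 45.4 FPKM, log2 difference 1.01) and Cdhr5 (541 ± 63.6 against 281 ± 73.6 FPKM, log2 difference 0.98) were ascending. Ace, the peptidase that makes angiotensin II, was the descending member (2.4 ± 1.44 against 13 ± 5.24 FPKM, log2 difference -2.03). Cldn15, which forms sodium-permeable pores, was at 56.2 ± 19.98 against 19.6 ± 13.7 FPKM, log2 difference 1.63. Cldn8, which seals against ions, was at 18.5 ± 5.79 against 83.2 ± 30.8 FPKM, log2 difference -2.03. Muc1, a transmembrane mucin, was at 2.71 ± 2.75 against 7.37 ± 2.99 FPKM, log2 difference -1.33. Gsdme (3.97 ± 1.32 against 0.669 ± 0.287 FPKM, log2 difference 1.54) was ascending and Gsdmc3 (53.8 ± 17.3 against 138 ± 31.2 FPKM, log2 difference -1.4) and Gsdmc4 (110.0 ± 57.7 against 351 ± 49 FPKM, log2 difference -1.87) descending.

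**Figure D4:**
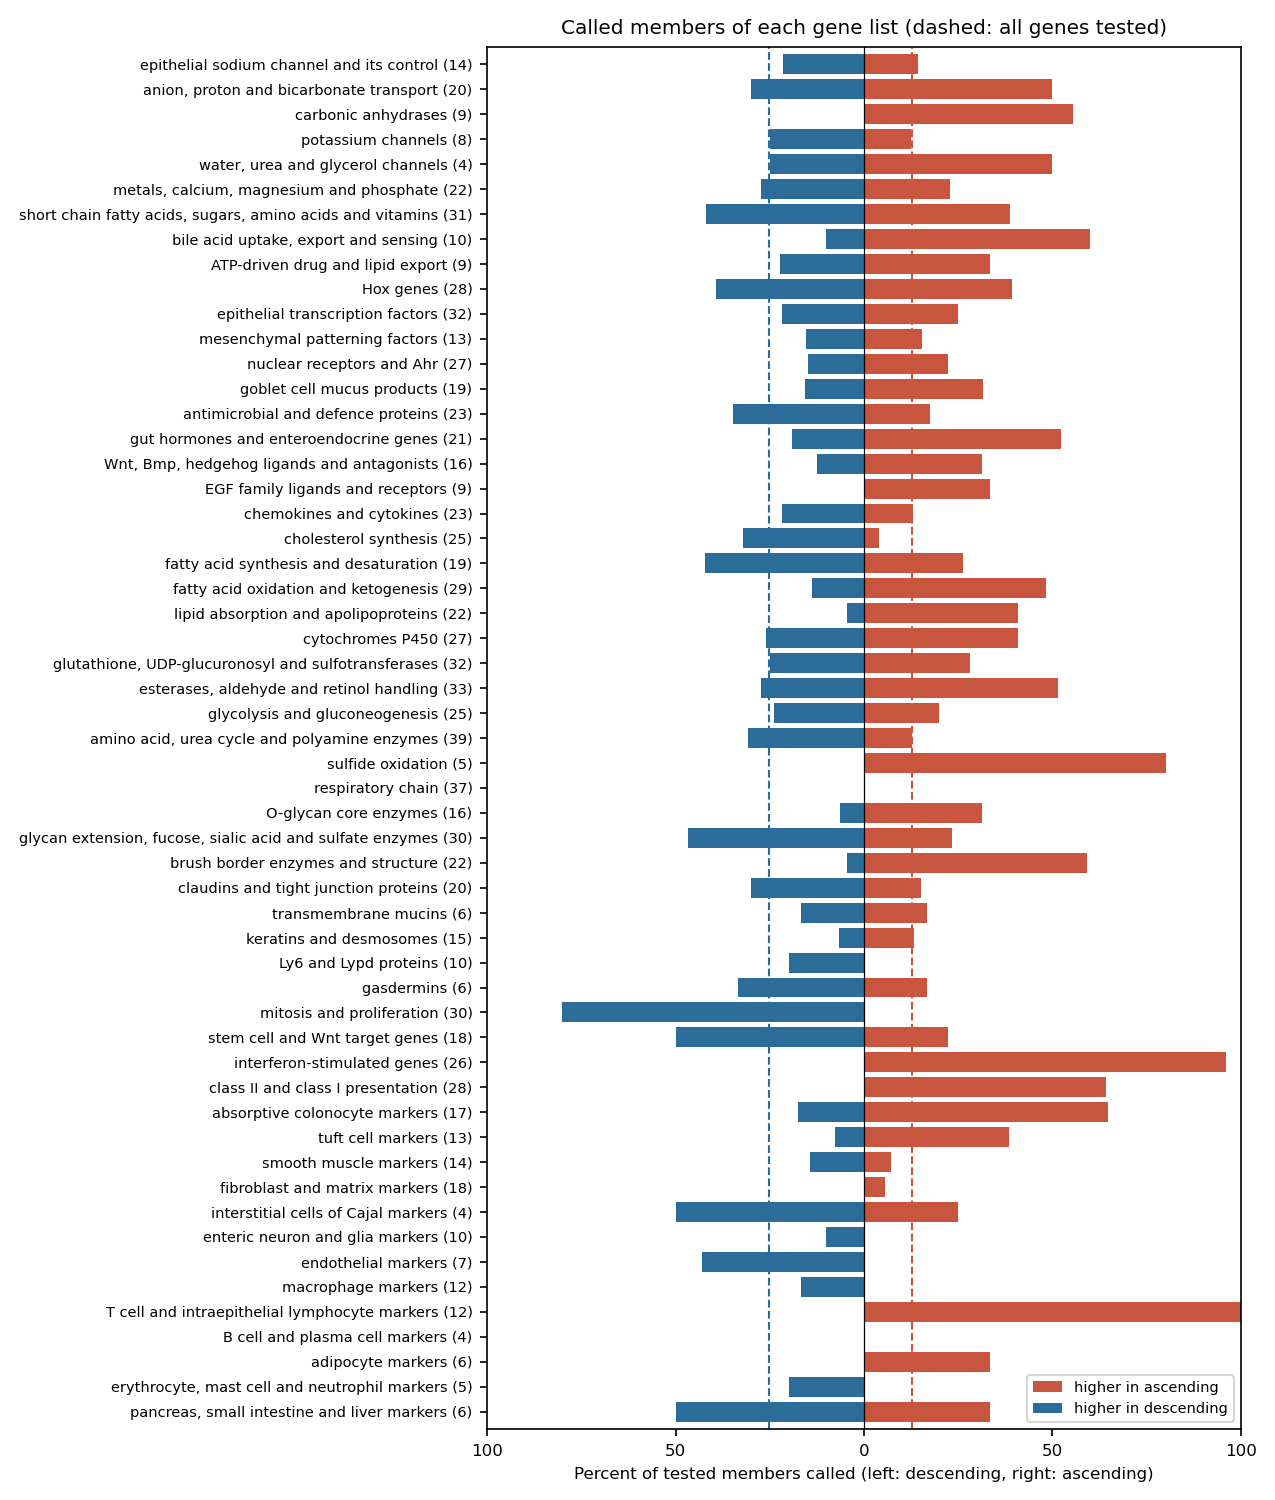
Percent of tested members of each gene list (number in brackets) called higher in ascending (right) or descending controls (left), horizontal axis in percent, with dashed lines for all genes (12.8% and 25.1%). T cell, interferon-stimulated and sulfide oxidation lists reach furthest right and mitosis genes furthest left.

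Genes of cell division were higher in the descending colon. Of 30 tested, 24 rose there and 0 in the ascending colon, with a median difference of -0.62 against -0.14 for all genes. With median-of-ratios scaling 18 rose in the descending colon. Mki67, a marker of cycling cells, was at 12.7 to 26.6 (median 21.1) against 33.6 to 56.8 (median 36.9) FPKM, -0.95 ± 0.14 apart. Top2a (10.7 ± 3.09 against 18.1 ± 3.54 FPKM, log2 difference -0.73), Plk1 (7.95 ± 1.87 against 13.1 ± 3.71 FPKM, log2 difference -0.66) and the replication genes Mcm3 (4.71 ± 1.47 against 9.43 ± 2.54 FPKM, log2 difference -0.88), Mcm6 (6.76 ± 2.75 against 12.1 ± 3.56 FPKM, log2 difference -0.78) and Tyms (2.27 ± 0.445 against 5.2 ± 1.08 FPKM, log2 difference -0.91) moved with it. Stem cell and Wnt target genes split, 9 of 18 higher in the descending and 4 in the ascending colon. Ephb3 (6.42 ± 1.06 against 15.5 ± 3.96 FPKM, log2 difference -1.12), Smoc2 (3.41 ± 1.05 against 8.58 ± 4.08 FPKM, log2 difference -1.04), Lrig1 (24.6 ± 1.67 against 47.3 ± 9.98 FPKM, log2 difference -0.89) and Rnf43 (14.7 ± 4.1 against 22.1 ± 3.45 FPKM, log2 difference -0.58), which are crypt base genes, were descending, and Prom1 (91.1 ± 12.5 against 26.2 ± 11.1 FPKM, log2 difference 1.83) and Cd44 (15.7 ± 5.6 against 5.08 ± 4.49 FPKM, log2 difference 1.61) ascending.

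Called immune genes were mostly ascending. All 12 tested T cell and intraepithelial lymphocyte markers rose there. The filter of 0.5 FPKM used the mean over both regions. Markers such as Cd8a and Cd3e, with descending means of 0.159 and 0.45 FPKM, passed it through their ascending values. This favours ascending calls among the markers tested. The 14 of this list in the table summed to 22.8 to 89.6 FPKM in ascending and 4.46 to 7.69 in descending libraries, with no overlap. Granzymes, proteases of killer lymphocytes, had the largest differences of the list: Gzma was at 3.54 to 34.5 (median 12.9) against 0 to 0.63 (median 0) FPKM and Gzmb at 1.65 to 8.96 (median 5.48) against 0 to 0.41 (median 0.080). Cd8a (3.75 ± 1.26 against 0.159 ± 0.0799 FPKM, log2 difference 2.0), Cd3e (3.07 ± 1.17 against 0.45 ± 0.20 FPKM, log2 difference 1.45), Cd7 (10.9 ± 5.79 against 0.91 ± 0.557 FPKM, log2 difference 2.52) and Nkg7 (5.79 ± 2.18 against 0.646 ± 0.47 FPKM, log2 difference 2.02) followed. Class I genes rose likewise, B2m at 953 to 2243 (median 1351) against 154 to 588 (median 436) FPKM and H2-T3, the TL antigen that binds CD8, at 37.6 ± 10.7 against 3.22 ± 2.95 FPKM, log2 difference 3.62. Of the 28 presentation genes 18 were ascending and 0 descending, while Cd74, the class II invariant chain, was not called (737 ± 503 against 543 ± 443 FPKM). Interferon-stimulated genes were ascending in 25 of 26 and descending in 0. Ifit1, an RNA sensor, was at 19.9 to 218 (median 70.2) against 0.88 to 18.8 (median 2.03) FPKM, and Irf7, their regulator, at 120.4 ± 66 against 26.3 ± 9.32 FPKM, log2 difference 2.04. The count fell to 6 without cage B and 12 without cage C.

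Other cells of the wall gave mixed values. Smooth muscle markers summed to 42.4 to 538.2 FPKM in ascending and 50.7 to 563.6 in descending libraries, so pieces of the same region differed widely in these markers. Of 14 markers, 1 was called ascending and 2 descending, and without A2 and B1 10 were descending. Interstitial cells of Cajal are the pacemakers of gut motility, and their genes were called in opposite directions. Kit, their receptor kinase, was at 16.8 ± 6.36 against 8.51 ± 3.43 FPKM, log2 difference 0.88. Ano1 was at 13 ± 3.72 against 69.5 ± 15.3 FPKM, log2 difference -2.34. Thbs4 was at 12.2 ± 11.1 against 165 ± 51.3 FPKM, log2 difference -3.85. Tuft cell markers were ascending in 5 of 13 and descending in 1, with 9 ascending without A2 and B1 and 0 without cage B. Adipocyte markers summed to 13.6 to 82.0 FPKM in ascending and 1.17 to 21.1 in descending libraries. Cidec (12.6 ± 5.17 against 0.931 ± 0.926 FPKM, log2 difference 2.85) and Lpl (5.13 ± 1.97 against 0.98 ± 1.21 FPKM, log2 difference 1.73) were called, and Adipoq was not. B cell and plasma cell markers had no call among 4 tested by limma, and macrophage markers 2 of 12, descending. The part of these cells in the differences above was not tested.

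The regional comparison was repeated in the 16 mutant libraries, which share no library with the controls. It called 5368 of 12203 genes (44%). Estimated depth differed with region here too, with medians of 3.48 M reads in ascending and 7.27 M in descending mutants. Of the called genes 32.6% were higher in the ascending colon, and 50.5% with median-of-ratios scaling. The repeat thus shares the limits of depth and scale of the controls, and their part was not tested. Of the 4677 genes called in controls and tested in mutants, 4668 (99.8%) had the same direction and 3891 (83.2%) were called in that direction, with none called in the other. The leading genes repeated: Isx differed by 6.83, Fabp2 by 6.53 and Slc51a by 5.62 log2 units. Atp12a differed by -7.57, Hoxb13 by -7.72, Slc15a1 by -3.77 and Sval1 by -8.32. A direct test of region by genotype over all 30 libraries called 0 genes (0%) with limma, and 198 had an unadjusted p under 0.05. The smallest p values were those of Tbc1d2b, Adss, Arhgap31, Ano1 and Gtpbp1, each with a limma adjusted p of 0.99992. For Ano1 the ascending minus descending difference in mutants, less that in controls, was -0.79 ± 0.24 (SE) log2 units. Its level was not compared between genotypes.

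**Figure D5:**
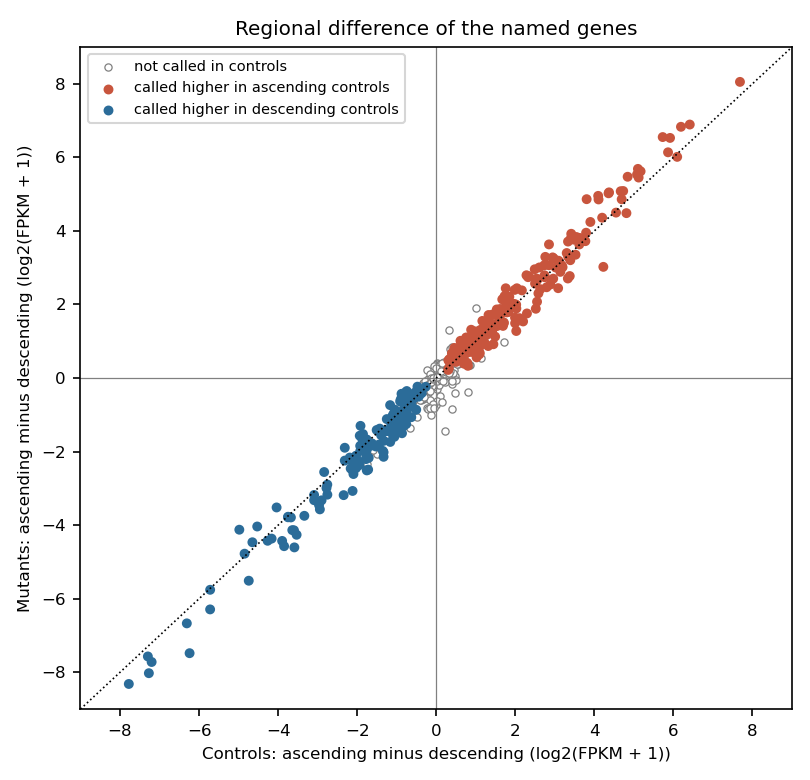
Regional difference in mutants (vertical) against that in controls (horizontal), both log2(FPKM + 1), for 493 named genes tested in both, with a dotted line of equality. All 339 genes called in controls have the same direction in mutants.

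Whether the regional difference depended on cage was tested in the 14 controls. Limma called 0 genes (0%), and 631 had an unadjusted p under 0.05. The smallest adjusted p was 0.103. Apoa4, an apolipoprotein of chylomicrons, had the smallest p, with differences of 3.2, 0.14 and -0.09 log2 units in cages A, B and C. Lpo, a peroxidase, had 2.87, -0.28 and -1.16, and the Wnt antagonist Sfrp1 -0.30, -2.91 and -2.04. Cdc42ep2 and Ceacam2 completed the 5. With 2 or 3 libraries per region and cage, differences between cages that miss the threshold do not show that cages were alike. Leaving out descending A1 raised the count of cage-dependent genes, but A2, which stood apart from its region, was then the only descending library of cage A. That fit therefore cannot tell a difference between cages from a difference of this library.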

How the data were processed

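The authors deposited FPKM per gene for each library, rounded to 2 decimals. The submitters' processing notes name GRCm38 (mm10), STAR, DESeq2 and bcl2fastq 2.17, without roles. Not given in the sources used here are the counter, the annotation, the gene lengths and the handling of reads that map to several genes. Read counts were not used here, so depth was estimated from the spacing of low FPKM of short genes, and entered no test. Of 14475 identifiers, 14472 were found in GENCODE M21, whose positions are given.

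Values were taken as log2(FPKM + 1). Genes whose mean over the fitted libraries was 0.5 FPKM or more were analysed with limma 3.58.1 in R 4.3.3 (lmFit, eBayes with a trend on the mean), with cage as a covariate. Region by cage was tested with a moderated F test in controls, and region by genotype over all 30 libraries. A gene was called at an adjusted p (Benjamini-Hochberg, two-sided) under 0.05. The script was tested on simulated data. Nothing says that libraries of a group come from separate mice, so p-values measure the spread between these libraries.

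The members and the 55 gene lists were chosen with earlier results of these data known. Named genes are the 15 largest differences in each direction among called genes that average 1 FPKM or more and keep one direction in all 3 cages. Added to them are up to 4 called members per list and direction, up to 4 more of highest level, the Hox, carbonic anhydrase, aquaporin and sodium channel genes, C1galt1 and B3gnt6, and the 5 smallest p of each interaction. Some genes under this rule are not reported here. Lists are described by counts and medians beside all genes, with no test. Alternatives were the pseudocount (0.1), the filter (none, or 2 FPKM), median-of-ratios and quantile scaling, robust moderation, array weights, no cage covariate, leaving out each cage or library, a replicate block and 1 fit of all 30 libraries. Leaving out descending control A2 and ascending control B1 together was added after seeing the data. The libraries share replicate numbers within cage, and same-numbered libraries of both regions deviated with correlations of -0.161 to 0.0612. With 2 or 3 libraries per region and cage, such correlations cannot decide whether the numbers pair libraries. The labels state no pairing, so the main fit used none.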

Additional observations from a re-analysis of the deposited data

Results flagged for a closer look

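For the 30 genes of largest difference, the 7 libraries of each region were searched for a highest or lowest value far from the others on the log2(FPKM + 1) scale. Of 51 groups with a value of at least 1 FPKM, 26 held such a library. Chance flags about 1 in 20 groups. In 16 of them it was descending control A2 and in 9 ascending control B1.

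Descending A2 was the highest of its region for Fabp2 (106 FPKM), Apol10a (51.1), Plet1 (38.7), Tmigd1 (18.1), Sptssb (13.6), Hkdc1 (2.63), Prap1 (1.75) and Abca12 (1.10). All 8 are genes of the ascending colon. It was the lowest of its region for 8 genes of the descending colon: Sycn (384 FPKM), B3gnt7 (85.4), Hoxb13 (44.5), Sval1 (17.2), Ttr (10.9), Defb45 (1.87), Hoxd13 (0.38) and Fxyd4 (0.25).

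Ascending B1 was the lowest of its region for Abca12 (16.7 FPKM), Cyp4b1 (9.82), Slc51a (3.55) and Osr2 (2.32), which are ascending genes. It was the highest for the descending genes Sycn (299.8 FPKM), Ly6g (6.73), Hoxb13 (4.55) and Atp12a (2.39), but also for the ascending gene Fabp2 (1006 FPKM). Ascending B2 was the highest of its region for Slc37a2 (35.1 FPKM).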

How the results depend on the processing

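The count of genes called between regions, 4744, was 2069 without cage B and 2567 without cage C, and calls higher in the ascending colon (1598) numbered 817 and 978. Calls higher in the descending colon (3146) numbered 1252 and 1589 in these fits, which hold fewer libraries, and 1855 with median-of-ratios scaling. Over single libraries left out the count ran from 3860 (without ascending C2) to 5468 (without descending A2). The replicate block gave 4236 and ended the call of 2 of the 237 called genes named. The numbers were not taken as pairs. The count of genes whose regional difference depends on cage, 0 in the test reported, was 2 with quantile normalization, 5 without A2 and B1, and 0 to 258 with single libraries left out (258 without descending A1, 1 without ascending A1 and 1 without ascending B1). Without descending A1, the only descending library of cage A was A2, which stood apart from its region. The test of region by cage was not run without a cage or without the cage covariate. The mutant count of 5368 was 3528 without cage C. The causes were not tested.

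None of the 237 named genes that were called changed direction in the alternatives run, and their calls were lost for at most 21 (without cage B), 12 without cage C, 7 without cage A, 5 with any single library left out and 5 with median-of-ratios scaling. Some named genes that were not called changed sign, given here with their log2 differences. With a pseudocount of 0.1 the sign turned for Aqp4 (-0.00207). With median-of-ratios scaling the sign turned for Zg16 (0.115) and Cdx1 (0.114). With quantile normalization the sign turned for Hnf4a (-0.0399) and Lypd8 (-0.387). With array weights the sign turned for Hnf4a (-0.0193). Without cage A the sign turned for Hnf4a (-0.00671), C1galt1 (-0.0162), Fabp6 (-0.424) and Lpo (-0.634). Without cage B the sign turned for Gcg (-0.2), C1galt1 (-0.132), Scnn1b (0.275), Aqp4 (-1.35) and Cdx1 (0.00958). Without cage C the sign turned for Hnf4a (-0.00382), Zg16 (0.643), Gtpbp1 (-0.0688) and Cdx1 (0.0357). Without A2 and B1 the sign turned for Hnf4a (-0.0515), C1galt1 (-0.0209) and Aqp4 (-0.0693). With single libraries left out, differences ran for Zg16 from -0.67 to 0.271, Cdx1 from -0.161 to 0.0275, C1galt1 from -0.000885 to 0.13, Aqp4 from -0.5 to 0.448, Hnf4a from -0.0374 to 0.0744 and Gtpbp1 from -0.0192 to 0.0548.

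Depth, estimated at 3.17 to 8.78 M reads, limits genes near 0.5 FPKM most.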

Other observations

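Some lists not described above held few calls. Of 10 tested Ly6 and Lypd genes, 2 were descending, Ly6g and Ly6c1 (0.381 ± 0.25 against 4.13 ± 5.82 FPKM, log2 difference -1.39), and the latter call was lost without cage B or C. Lypd8, a secreted and surface protein that binds flagella, was among the most abundant genes of the list at 6682 ± 2151 against 5473 ± 1908 FPKM and was not called (limma adjusted p = 0.564). Endothelial markers had 3 descending calls among 7, with Vwf at 0.379 ± 0.12 against 1.29 ± 0.518 FPKM, log2 difference -0.70. Of 18 fibroblast and matrix genes Thy1 alone was called (3.15 ± 1.35 against 1.35 ± 0.545 FPKM, log2 difference 0.80). Among macrophage genes Cd14, a receptor for lipopolysaccharide, was at 13.2 ± 3.19 against 26.3 ± 7.16 FPKM, log2 difference -0.93. Cma1, a mast cell chymase, was listed at 0 in every ascending library and was at 0 to 1.7 (median 0.95) FPKM in descending ones.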
